A study of Canis lupus familiaris with 12 samples.

Results

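Collagens are secreted proteins built of alpha chains that wind by threes into a triple helix. The fibrillar chains form the load-bearing fibrils of heart and valve, the fibril-associated chains (FACIT) coat those fibrils, the basement membrane chains form the sheets under endothelium and around muscle cells, and the network and beaded-filament chains form finer meshes between them. In the mitral leaflet a dense layer of type I and type III fibrils carries tension, and degenerative mitral valve disease (DMVD) is known for disorder of that layer and for thickening of the leaflet.

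The 32 collagen chain genes described here are the rows, of 24223 in each tissue table, whose gene name is COL, digits, A, digits. A second name pattern, for UniProt entry names of collagen chains, matched 0 rows. They fell into 9 fibrillar, 9 FACIT, 5 basement membrane (COL4A1, COL4A2, COL4A6, COL7A1 and COL15A1), 6 network or beaded-filament, 2 transmembrane chains (COL13A1 and COL25A1) and COL28A1, which belongs to none of these.

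RNA sequencing covered the left ventricle and the mitral valve of dogs. The DMVD ventricle group holds 2 libraries, from a Jack Russell Terrier aged 5 years and a Pomeranian aged 9 years, and the control ventricle group holds 4, from a Beagle aged 8 years and Hound mixes aged 3 years. The DMVD valve group holds 3 libraries, from that Pomeranian and Beagles aged 17 and 16 years, and the control valve group holds 3, from the Beagle aged 8 years and Hound mixes aged 3 years. Breed and age differ between the diagnoses, and their part in any difference cannot be told apart from that of the disease. No treatment is named in the labels.

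Each table gives 1 value per group, read as FPKM, a level scaled for gene length and library size, so levels can be compared between genes. Spread between dogs and depth per library are therefore unknown, and no value per dog can be shown. All FPKM values below are the authors' group values. Log2 fold changes set DMVD over control, and ± gives the standard error (SE) worked back from the deposited test statistic. A gene was called when its p, from the authors' test, stayed under 0.05 after Benjamini-Hochberg adjustment over every gene the authors tested in that tissue.

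Marker levels were set beside the tissue labels, and not every marker separated the tissues. In the ventricle the cardiomyocyte light chain MYL3 had 4451 FPKM in DMVD and 4676 FPKM in control. In the valve the collagen-binding proteoglycan LUM had 620 FPKM in DMVD and 575 FPKM in control. Its ventricle levels were 56.9 FPKM in DMVD and 73.6 FPKM in control. Heart muscle genes were also present in the valve, with MYL3 at 36.6 FPKM in DMVD and 1335 FPKM in control. Other muscle genes stayed higher than MYL3 in DMVD valves. ACTC1 had 3164 FPKM in DMVD valves and 2785 FPKM in control valves, and TNNT2 1846 FPKM and 4523 FPKM. In the ventricle ACTC1 had 3282 FPKM in DMVD and 1565 FPKM in control, so its control level was higher in the valve. TNNT2 had 4000 FPKM in DMVD ventricles and 7051 FPKM in control ventricles. MYH7 had 1280 FPKM in DMVD valves and 3068 FPKM in control valves, and MYBPC3 354 FPKM and 650 FPKM.

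The valve held more collagen RNA than the ventricle, in other proportions, in both diagnoses. Summed over the 32 genes, valve collagen came to 994 FPKM in DMVD and 759 FPKM in control, while ventricle collagen came to 125 FPKM in DMVD and 124 FPKM in control. Fibrillar chains made up 65.5% of the valve sum in DMVD and 64.9% in control. In the ventricle they made up 25.6% in DMVD and 26.9% in control, and basement membrane chains were the largest share of the 32 genes there, at 47.2% in DMVD and 43.7% in control. The control ranking depends on rows left out of the sums, described with COL3A1. The sums also lack 12 collagen symbols of another gene table that have no row of that name here. Whether the tissues were scaled together is not given. Levels set across tissues carry a shift whose source was not tested. The median log2 value of valve over ventricle was 0.34 in DMVD and 0.31 in control, for genes above 1 FPKM in both tissues. The collagen genes above 1 FPKM in both tissues had a valve over ventricle median of 2.68 in DMVD (12 genes) and 1.86 in control (13 genes).

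**Figure D1:**
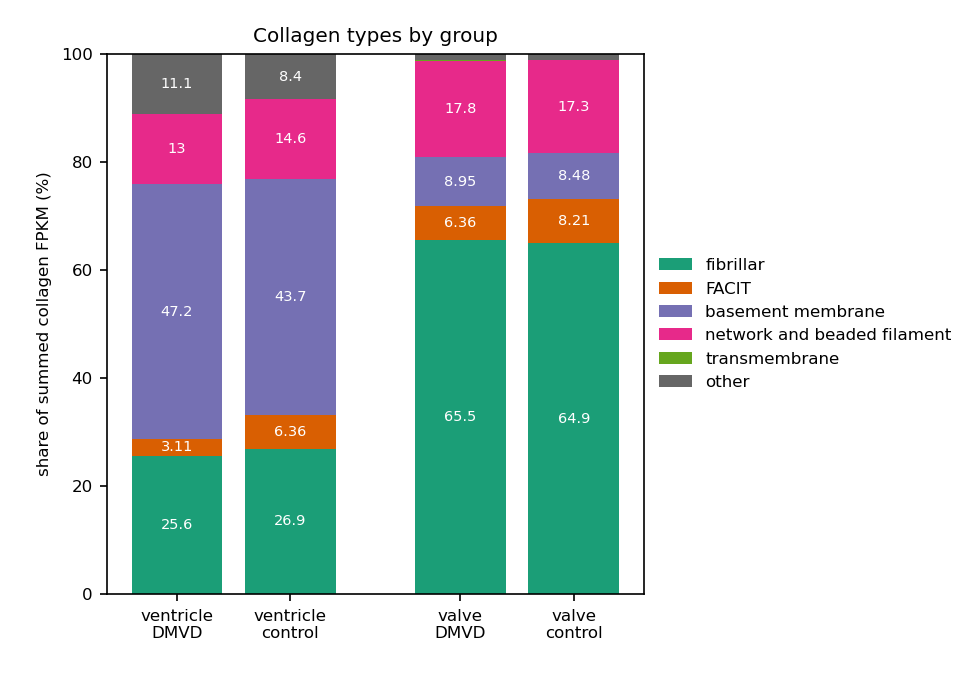
Share of the summed collagen FPKM (percent, vertical axis) held by each collagen type in the DMVD and control groups of each tissue. Fibrillar chains hold 65.5% in DMVD valves and 64.9% in control valves, and basement membrane chains hold 47.2% in DMVD ventricles and 43.7% in control ventricles.

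The type I chains topped the valve order. COL1A2, a chain of the main fibril of tendon, skin and valve (gene ENSCAFG00000002069, chromosome 14, 19883733 to 19920718, CanFam3.1), had 324 FPKM in DMVD valves and 265 FPKM in control valves. Its partner COL1A1 (ENSCAFG00000017018, chromosome 9, 26183852 to 26199927) had 201 FPKM in DMVD valves and 127 FPKM in control valves. Together they made 52.8% of the valve collagen sum in DMVD and 51.7% in control. Next came COL6A1, a chain of the beaded microfibrils that surround cells, with 136 FPKM in DMVD valves and 102 FPKM in control valves, and COL5A2, a chain of the type V collagen on which type I fibrils start, with 111 FPKM in DMVD valves and 77.5 FPKM in control valves. These 4 genes held the first 4 places in both valve groups.

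Among the 32 genes, the ventricle order was led by COL4A1, the basement membrane chain made by nearly all cells that rest on a basement membrane, with 28.5 FPKM in DMVD and 21.2 FPKM in control. Its partner COL4A2 had 19.6 FPKM in DMVD and 16.0 FPKM in control. COL15A1, a collagen of the basement membrane zone of muscle and capillaries, had 10.4 FPKM in DMVD and 16.3 FPKM in control, and held the sixth place in DMVD and the second in control. COL1A2 had 9.82 FPKM in DMVD ventricles and 13.6 FPKM in control ventricles. Over the 32 genes the order of levels was alike between diagnoses, with Spearman's rho of 0.95 in each tissue. The order was also largely shared between valve and ventricle, with a rho of 0.833 in DMVD and 0.882 in control. These are descriptions of group values.

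The step between tissues differed by chain. COL4A1 was 1.40-fold higher in valve than ventricle in DMVD dogs and 1.14-fold in control dogs, and COL5A3, the minor type V chain, 1.07-fold in DMVD dogs and 1.12-fold in control dogs. COL1A1 was 35.8-fold higher in the valve in DMVD and 26.4-fold in control. Chains best known from cartilage stood further apart than COL4A1 as well: COL9A2, a chain of the type IX collagen that coats type II fibrils, was 29.4-fold higher in the valve in DMVD and 14.5-fold in control. COL28A1 went the other way, at 0.848 of its ventricle level in DMVD and 0.792 in control. These ratios carry the shift given above and were not tested.

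**Figure D2:**
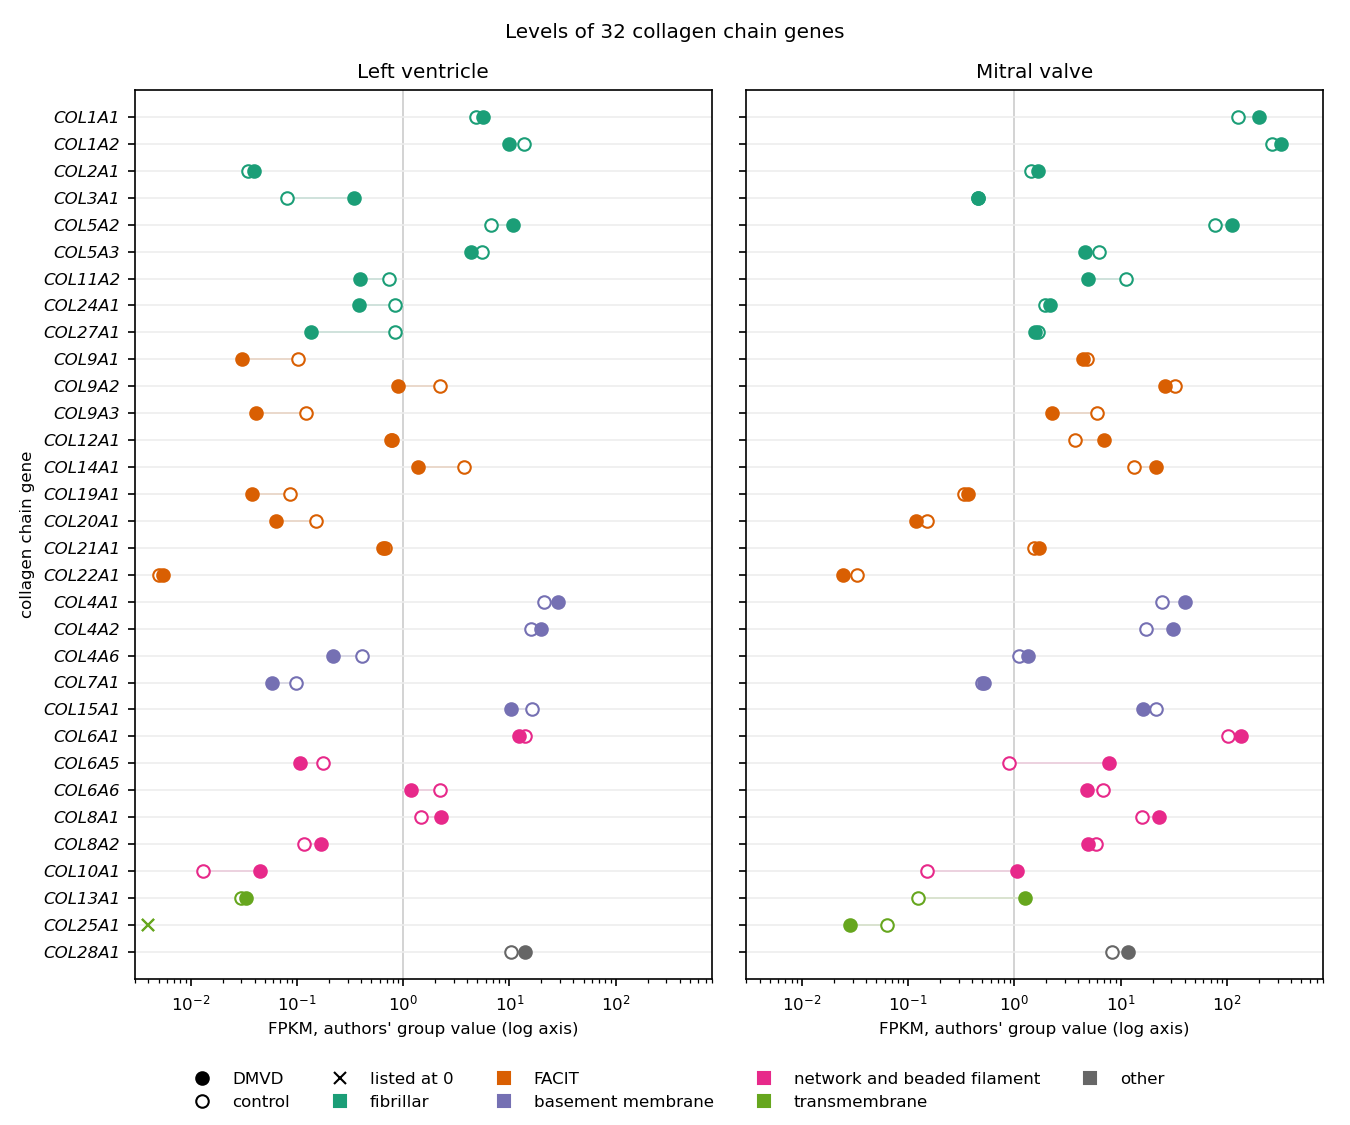
FPKM (log axis) of the 32 collagen genes in the left ventricle and mitral valve, with filled circles for DMVD, open circles for control, a cross where a gene is listed at 0, and colours for collagen type; the grey line marks 1 FPKM. In the valve, 26 genes reach 1 FPKM in DMVD and 23 in control, and in the ventricle 12 do in DMVD and 13 in control.

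The ventricle comparison asks how the collagen genes of the pumping chamber differ between dogs with DMVD and control dogs. Among its collagen genes 1 fell, none rose, 17 of the 18 tested did not pass and 14 were not tested for low counts. Over all genes tested in this tissue, 3.08% were called in either direction, 1.92% higher and 1.16% lower in DMVD. With an unadjusted p under 0.05 in the authors' deposited table were 2 of the 18, both lower in DMVD, against 11.3% of all genes tested. The 18 genes had a median log2 fold change of -0.27, and that of all tested genes was -0.04. Among the collagen genes averaging at least 5 FPKM the median was 0.25, so its sign depends on the low genes. Values were lower in DMVD for 11 and higher for 7.

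The called gene was COL14A1, a FACIT chain that sits on type I fibrils (ENSCAFG00000000934, chromosome 13, 19034338 to 19250578). It fell to 1.39 FPKM in DMVD ventricles, against 3.71 FPKM in control ventricles, a log2 fold change of -1.42 ± 0.44 (adjusted p = 0.0417 by Benjamini-Hochberg over the authors' p, 95% interval -2.28 to -0.56). The adjusted p lies close to 0.05. Adding 1 FPKM to each group gave -0.98 on the log2 scale.

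The other FACIT chains of the ventricle had low levels. COL9A2 had 0.890 FPKM in DMVD and 2.23 FPKM in control (-1.33 ± 0.60, adjusted p = 0.312 by Benjamini-Hochberg over the authors' p). COL12A1, a close relative of COL14A1 that also binds type I fibrils, had 0.779 FPKM in DMVD and 0.769 FPKM in control, and COL21A1 had 0.643 FPKM in DMVD and 0.679 FPKM in control. The ratio of COL12A1 to COL14A1 was 0.561 in DMVD and 0.208 in control, a log2 change of 1.44 ± 0.71 with both errors taken as independent. The summed FACIT level was 3.88 FPKM in DMVD ventricles and 7.86 FPKM in control ventricles. COL9A1, COL9A3, COL19A1, COL20A1 and COL22A1 were each under 0.16 FPKM in both groups and untested.

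None of the 7 tested fibrillar chains of the ventricle was called, and 0 had an unadjusted p under 0.05 in the authors' deposited table. COL1A1 had 5.61 FPKM in DMVD and 4.82 FPKM in control (0.22 ± 0.45), while COL1A2 had a log2 fold change of -0.47 ± 0.43. COL2A1 and the row named COL3A1 were untested there, both under 0.35 FPKM in each group. The 95% interval of COL1A1 ran from 0.634-fold to 2.13-fold and that of COL1A2 from 0.400-fold to 1.29-fold. COL5A2 had 10.8 FPKM in DMVD and 6.67 FPKM in control (0.70 ± 0.42), and COL5A3 had 4.35 FPKM in DMVD and 5.57 FPKM in control (-0.35 ± 0.42). The 3 minor chains all had lower values in DMVD: COL24A1 0.386 FPKM against 0.841 FPKM in control, COL27A1 0.136 FPKM against 0.836 FPKM, and COL11A2 0.397 FPKM against 0.730 FPKM. COL27A1 shares its listed locus with 3 other rows, so its reads may not be its own, and with 1 FPKM added its log2 fold change of -2.62 ± 1.34 became -0.69.

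Basement membrane, network and remaining chains of the ventricle also gave no call. COL4A1 had 0.43 ± 0.79 and COL4A2 0.29 ± 0.58 on the log2 scale, and their ratio to each other was 1.45 in DMVD and 1.32 in control. COL4A2 shares its listed locus with 3 other rows, so its reads may not be its own. COL15A1 had -0.64 ± 0.58. Among the beaded-filament chains COL6A1 had 12.4 FPKM in DMVD and 14.1 FPKM in control, and COL6A6, an alternative partner chain of COL6A1, had 1.18 FPKM in DMVD and 2.21 FPKM in control (-0.90 ± 0.46). COL8A1, a short-chain network collagen of vessel walls, had 2.26 FPKM in DMVD and 1.47 FPKM in control. COL28A1 had 13.9 FPKM in DMVD and 10.4 FPKM in control (0.42 ± 0.42). COL4A6, COL7A1, COL8A2, COL10A1 and COL13A1 were untested, each under 0.41 FPKM in both ventricle groups.

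Other cell markers moved in the same ventricle samples. Of the 3 tested fibroblast and valve interstitial markers (3 of 9 matched a row) POSTN rose, to 5.63 FPKM in DMVD against 0.453 FPKM in control, and their summed level was 64.9 FPKM in DMVD and 77.3 FPKM in control. All 3 red cell markers that matched (of 4) rose, with summed levels of 44.8 FPKM in DMVD and 1.26 FPKM in control. Of 4 endothelial markers VWF rose and 3 did not pass, and the sums were 117 FPKM in DMVD and 52.4 FPKM in control. Of 4 cardiomyocyte, 3 cartilage, 2 macrophage and 3 smooth muscle markers tested in the ventricle none passed, with 0, 1, 1 and 1 having an unadjusted p under 0.05 in the authors' deposited table. The summed levels were 12279 FPKM in DMVD and 14264 FPKM in control for the 4 tested cardiomyocyte markers, 4.88 FPKM in DMVD and 2.72 FPKM in control for the 3 tested cartilage markers, 13.8 FPKM in DMVD and 5.75 FPKM in control for macrophages, and 228 FPKM in DMVD and 105 FPKM in control for smooth muscle. Single genes weighed heavily in these sums. TAGLN had 210 FPKM in DMVD and 86.9 FPKM in control. ACTA2 had 15.4 FPKM in DMVD and 14.1 FPKM in control, and MYH11 3.11 FPKM in DMVD and 4.40 FPKM in control. SOX9 had 3.65 FPKM in DMVD and 1.21 FPKM in control, and LECT1 0.384 FPKM in DMVD and 0.767 FPKM in control. The part of cell composition in the COL14A1 result was not tested. In bulk tissue fewer cells of a type cannot be told apart from less RNA per cell.

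The valve comparison asks what differs in the leaflet itself. Among its collagen genes 1 rose, none fell, 26 of the 27 tested did not pass and 5 were not tested. Over all genes tested in the valve, 0.419% were called in either direction, 0.311% higher and 0.108% lower in DMVD. With an unadjusted p under 0.05 in the authors' deposited table were 2 of the 27, both higher in DMVD, against 4.2% of all genes tested. The 27 genes had a median log2 fold change of 0.28, and that of all tested genes was 0.05. Values were higher in DMVD for 18 and lower for 9.

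The called gene was COL6A5, a chain of collagen VI that can stand in for COL6A3 beside COL6A1 (ENSCAFG00000006046, chromosome 23, 27596435 to 27726503). It rose to 7.74 FPKM in DMVD valves, against 0.881 FPKM in control valves, a log2 fold change of 3.14 ± 0.58 (adjusted p = 0.000128 by Benjamini-Hochberg over the authors' p, 95% interval 2.001 to 4.27). Its place among the 32 genes was 12 in DMVD valves and 24 in control valves. Adding 1 FPKM to each group gave 2.22 on the log2 scale. The row that shares its listed locus is at 0 FPKM in all 4 groups. In the ventricle COL6A5 was untested, with 0.108 FPKM in DMVD and 0.175 FPKM in control.

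The other collagen VI chains of the valve gave no call. COL6A6, the neighbouring gene on chromosome 23 (27759397 to 27899273), had 4.79 FPKM in DMVD valves and 6.83 FPKM in control valves (-0.51 ± 0.47). COL6A5 stood at 1.61 times COL6A6 in DMVD valves and at 0.129 times in control valves. The log2 change of that ratio was 3.65 ± 0.74, an SE that takes the errors of both genes as independent. COL6A1 had 0.42 ± 1.27 on the log2 scale, and it shares its locus with 9 other rows. COL6A5 remained a small fraction of COL6A1, at 0.0569 in DMVD valves and 0.00867 in control valves.

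**Figure D3:**
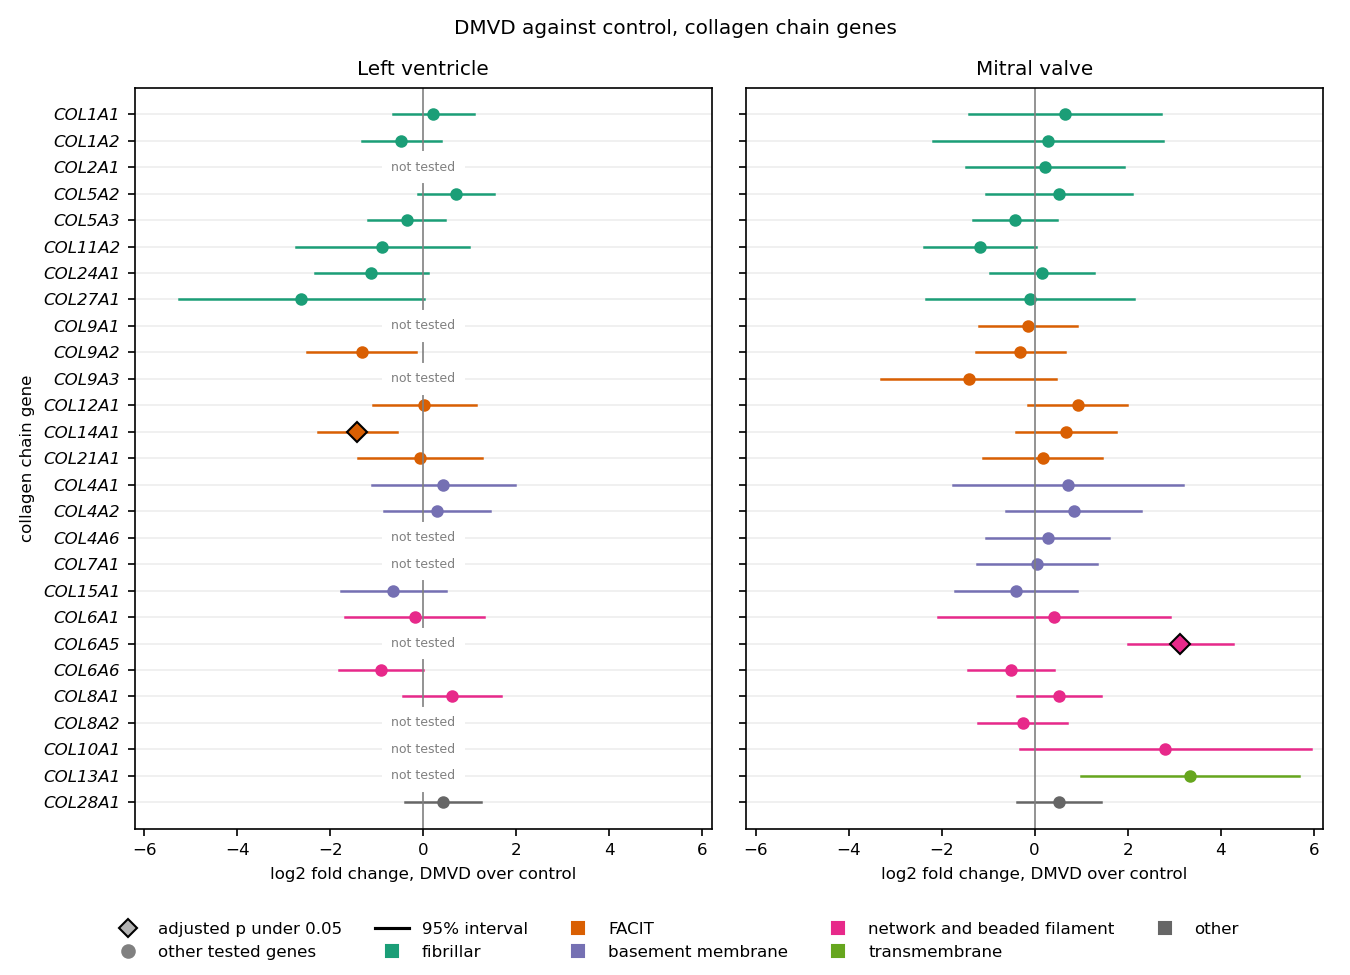
Log2 fold change (horizontal axis, DMVD over control) of the 27 collagen genes tested in at least 1 tissue, with bars for the 95% interval before adjustment and diamonds for genes with an adjusted p under 0.05. COL14A1 in the ventricle (-1.42) and COL6A5 in the valve (3.14) are the diamonds, and the valve bars of COL1A1, COL1A2, COL4A1 and COL6A1 are wide.

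None of the 8 tested fibrillar chains of the valve was called, and 0 had an unadjusted p under 0.05 in the authors' deposited table. COL1A1 had 0.66 ± 1.06 and COL1A2 0.29 ± 1.26 on the log2 scale. Their 95% intervals ran from 0.375-fold to 6.62-fold and from 0.219-fold to 6.82-fold, so a several-fold difference in either direction lies within both. At these errors COL1A1 would have needed a 15.2-fold difference to be called, and COL1A2 a 26.1-fold one. The ratio of COL1A1 to COL1A2 was 0.619 in DMVD valves and 0.480 in control valves. COL5A2 had 0.52 ± 0.80, and COL5A3 had 4.66 FPKM in DMVD valves and 6.26 FPKM in control valves (-0.43 ± 0.46).

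The remaining fibrillar chains of the valve gave no call. COL11A2, a chain of the type XI collagen that sets fibril width in cartilage, had 4.97 FPKM in DMVD and 11.1 FPKM in control (-1.17 ± 0.61, adjusted p = 0.9999 by Benjamini-Hochberg over the authors' p). COL2A1, the main cartilage fibril chain, had 1.66 FPKM in DMVD and 1.43 FPKM in control. COL24A1 had 2.17 FPKM in DMVD and 1.94 FPKM in control, and COL27A1 had 1.56 FPKM in DMVD and 1.67 FPKM in control.

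The row named COL3A1 is placed differently in another gene table. Here it is listed on chromosome 11 (73920744 to 73940107), shares its locus with TRAF1 and was untested, with 0.449 FPKM in DMVD valves and 0.455 FPKM in control valves, and 0.344 FPKM in DMVD ventricles and 0.0809 FPKM in control ventricles. In the RefSeq gene table of another dog assembly COL3A1 lies between GULP1 and COL5A2 on chromosome 36. Of 31 members found there by name the other 30 lie on the same chromosome in both. The single row between those genes here is named E5G724_CANFA (ENSCAFG00000014812, chromosome 36, 30487822 to 30526563). That row had 220 FPKM in DMVD valves and 159 FPKM in control valves (0.47 ± 1.27), and 9.49 FPKM in DMVD ventricles and 22.3 FPKM in control ventricles (-1.23 ± 0.55, adjusted p = 0.302 by Benjamini-Hochberg over the authors' p). It is outside the 32 genes and enters none of the sums. An alternative chosen after seeing the data counted it among the fibrillar chains. The fibrillar sum then came to 41.4 FPKM in DMVD ventricles and 55.5 FPKM in control ventricles. Basement membrane sums were 58.8 FPKM in DMVD and 54.0 FPKM in control. With this row alone added, the larger share changed in control ventricles. Row E5G724_CANFA would take place 2 in DMVD and control valves, place 8 in DMVD ventricles and place 1 in control ventricles. Candidate rows for other collagens, basement membrane chains among them, were not added. An unassigned candidate for COL18A1 or COL6A2 had 18.5 FPKM in DMVD ventricles and 12.9 FPKM in control ventricles. The control ranking therefore depends on which rows are counted.

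The FACIT chains of the valve gave no call among 6 tested, and 0 had an unadjusted p under 0.05 in the authors' deposited table. COL14A1 had 21.3 FPKM in DMVD valves and 13.4 FPKM in control valves (0.66 ± 0.55), and COL12A1 had 7.002 FPKM in DMVD valves and 3.69 FPKM in control valves (0.93 ± 0.55). Both had higher values in DMVD, by less than a call needed. The type IX chains lay the other way: COL9A2 had 26.1 FPKM in DMVD and 32.3 FPKM in control, COL9A1 4.40 FPKM in DMVD and 4.85 FPKM in control, and COL9A3 2.27 FPKM in DMVD and 6.04 FPKM in control (-1.41 ± 0.96). COL9A3 shares its locus with 2 other rows. COL21A1 had 1.71 FPKM in DMVD and 1.51 FPKM in control, while COL19A1, COL20A1 and COL22A1 were each under 0.37 FPKM in both valve groups.

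The basement membrane chains of the valve gave no call among 5 tested, and 0 had an unadjusted p under 0.05 in the authors' deposited table. COL4A1 had 40.0 FPKM in DMVD and 24.2 FPKM in control (0.72 ± 1.26), and COL4A2 had 30.9 FPKM in DMVD and 17.3 FPKM in control (0.84 ± 0.74). Their ratio to each other was 1.29 in DMVD and 1.40 in control, and COL4A2 shares its listed locus with 3 other rows. COL4A6 had 1.345 FPKM in DMVD and 1.11 FPKM in control. COL15A1 had 16.2 FPKM in DMVD and 21.3 FPKM in control, and COL7A1, the chain of the anchoring fibrils under skin, 0.519 FPKM in DMVD and 0.4998 FPKM in control.

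The network chains and the transmembrane chain included the 2 largest uncalled log2 fold changes of the members tested in the valve. COL13A1, a transmembrane collagen of cell junctions, had 1.25 FPKM in DMVD valves and 0.123 FPKM in control valves (3.35 ± 1.2, adjusted p = 0.390 by Benjamini-Hochberg over the authors' p). COL10A1, the collagen of hypertrophic cartilage, had 1.05 FPKM in DMVD valves and 0.1497 FPKM in control valves (2.81 ± 1.60). Adding 1 FPKM to each group gave 1.004 for COL13A1 and 0.84 for COL10A1. Each shares its listed locus with 1 other row. COL8A1 had 22.8 FPKM in DMVD valves and 15.8 FPKM in control valves (0.53 ± 0.46), and its partner COL8A2 had 4.88 FPKM in DMVD valves and 5.85 FPKM in control valves. COL28A1 had 11.8 FPKM in DMVD valves and 8.22 FPKM in control valves. COL25A1 stayed under 0.07 FPKM in both valve groups and is listed at 0 in both ventricle groups.

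Of the muscle markers, 1 differed between the same valve groups. Of 5 tested cardiomyocyte markers (5 of 12 matched a row) MYL3 fell and 4 did not pass, and their summed level was 6680 FPKM in DMVD valves and 12360 FPKM in control valves, with none at 0. The 3 fibroblast and valve interstitial markers had summed levels of 1319 FPKM in DMVD and 828 FPKM in control, and none passed. Most of that gap lay in POSTN, with 685 FPKM in DMVD and 245 FPKM in control (1.49 ± 2.52). LUM had 620 FPKM in DMVD and 575 FPKM in control. The 3 smooth muscle and myofibroblast markers summed to 1663 FPKM in DMVD and 738 FPKM in control, and the 7 cartilage markers to 150 FPKM in DMVD and 195 FPKM in control, again with none passing. Nor did any of 4 endothelial, 2 macrophage or 3 red cell markers pass. Their summed levels were 68.6 FPKM in DMVD and 33.7 FPKM in control for endothelium, 32.6 FPKM in DMVD and 11.3 FPKM in control for macrophages, and 3.78 FPKM in DMVD and 1.36 FPKM in control for red cells. HBM is listed at 0 in control valves. For the lists with no call, the numbers with an unadjusted p under 0.05 in the authors' deposited table were 0 fibroblast, 2 smooth muscle, 0 cartilage, 1 endothelial, 1 macrophage and 1 red cell markers. The part of cell composition in the COL6A5 result was not tested.

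A difference between tissues in the disease effect was tested gene by gene, as the valve log2 fold change minus the ventricle one. None of the 18 collagen genes tested in both tissues passed, and 1 had an unadjusted p under 0.05. Over all 13099 genes 0.107% were called, and 2.66% had an unadjusted p under 0.05. That gene was COL14A1, at 0.66 in the valve and -1.42 in the ventricle. Its difference was 2.08 ± 0.70 on the log2 scale (adjusted p = 0.580 by Benjamini-Hochberg over all 13099 genes, from the authors' statistics, 95% interval 0.71 to 3.46). The fall of COL14A1 in the ventricle is therefore not shown to differ from its valve value. The difference was positive for 14 of the 18 genes, with a median of 0.42, and for 53.3% of all genes, with a median of 0.05. COL6A5, COL13A1 and COL10A1 could not enter this test because the authors did not test them in the ventricle. Some dogs gave both tissues, which this SE does not model.

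**Figure D4:**
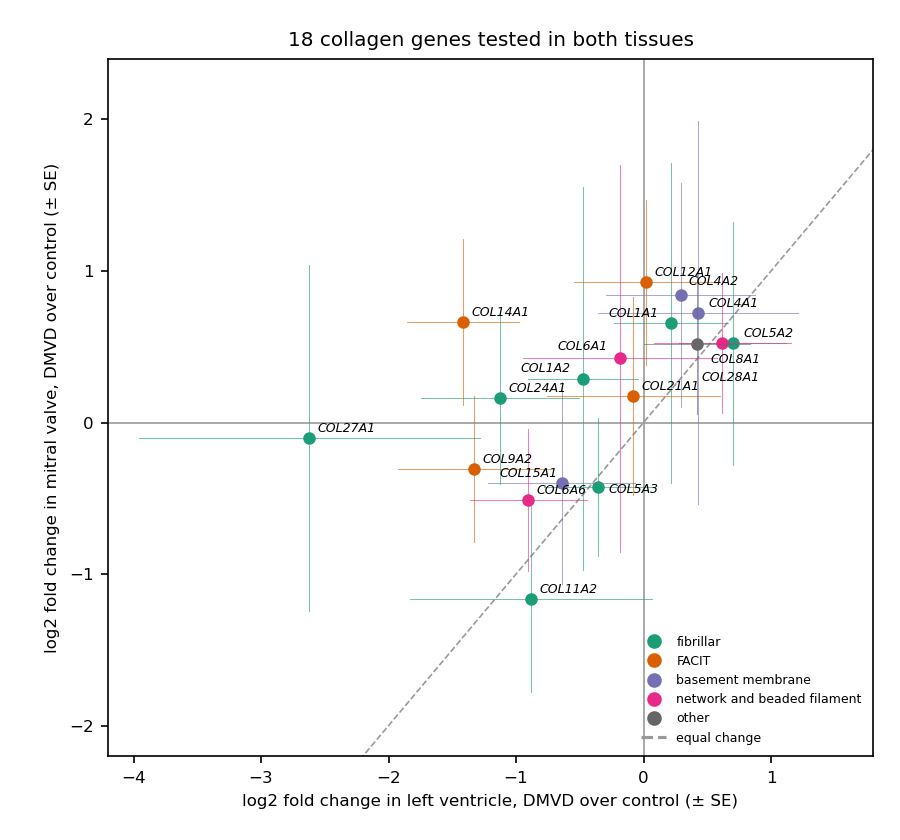
Log2 fold change of DMVD over control in the mitral valve (vertical axis) against that in the left ventricle (horizontal axis) for the 18 collagen genes tested in both, with bars of 1 SE and a dashed line where both are equal. COL14A1 lies farthest above the line relative to its errors, at -1.42 in the ventricle and 0.66 in the valve.

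Genes that modify, fold, cut, cross-link, bind or break down collagen were counted by list. Of 17 tested genes for chain modification and folding none passed in either tissue, and 1 in the ventricle and 0 in the valve had an unadjusted p under 0.05 in the authors' deposited table. Their median log2 fold change was -0.07 in the ventricle and 0.35 in the valve. In the valve 16 of the 17 had higher DMVD values, where 54.7% of all tested genes did. P4HA1, a prolyl hydroxylase subunit needed for a stable triple helix, had 18.6 FPKM in DMVD valves and 8.97 FPKM in control valves (1.05 ± 0.66), and 14.1 FPKM in DMVD ventricles and 6.49 FPKM in control ventricles (1.12 ± 0.61). PLOD3, a lysyl hydroxylase, had 26.1 FPKM in DMVD valves and 15.7 FPKM in control valves. GLT25D2, a collagen galactosyltransferase, had 0.0415 FPKM in DMVD ventricles and 0.721 FPKM in control ventricles (adjusted p = 0.0592 by Benjamini-Hochberg over the authors' p).

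Of 10 tested genes for propeptide cleavage and cross-linking, 1 rose in the ventricle, none fell and 9 did not pass, and none of 10 passed in the valve. The gene that rose was LOX, which oxidises lysines so that chains can cross-link, at 4.86 FPKM in DMVD ventricles and 0.867 FPKM in control ventricles (2.49 ± 0.48, adjusted p = 4.31e-05 by Benjamini-Hochberg over the authors' p). In the valve LOX had 29.6 FPKM in DMVD and 15.5 FPKM in control (0.93 ± 0.49), and LOXL2 had 12.7 FPKM in DMVD and 5.24 FPKM in control. ADAMTS14, a protease that trims the amino-terminal propeptide, was the single valve gene of this list with an unadjusted p under 0.05, at 1.56 FPKM in DMVD valves and 0.476 FPKM in control valves (1.71 ± 0.86).

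Of the 3 tested breakdown genes in the ventricle, the neutrophil collagenase MMP8 rose, to 1.48 FPKM in DMVD ventricles against 0.00912 FPKM in control ventricles, and 2 did not pass. Its log2 fold change was 7.34 ± 2.06 (adjusted p = 0.0163 by Benjamini-Hochberg over the authors' p), from a control value near 0. Adding 0.1 FPKM to each group gave 3.86 for MMP8, and adding 1 FPKM gave 1.30. None of 3 passed in the valve, and 0 had an unadjusted p under 0.05 in the authors' deposited table. There the interstitial collagenase MMP1 had 5.12 FPKM in DMVD and 9.20 FPKM in control. Among collagen receptors none of 6 in the ventricle and none of 8 in the valve passed, with 1 in each having an unadjusted p under 0.05 in the authors' deposited table. These were the integrin subunit ITGA11, at 0.502 FPKM in DMVD ventricles and 1.60 FPKM in control ventricles (-1.67 ± 0.55), and ITGA10, at 2.05 FPKM in DMVD valves and 0.482 FPKM in control valves (2.09 ± 0.77). Among basement membrane partners none of 8 passed in the ventricle and none of 9 in the valve. The single genes with an unadjusted p under 0.05 were the nidogens, linkers of laminin and type IV collagen: NID1 in the ventricle, at 3.38 FPKM in DMVD and 7.75 FPKM in control, and NID2 in the valve, at 10.2 FPKM in DMVD and 3.88 FPKM in control.

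**Figure D5:**
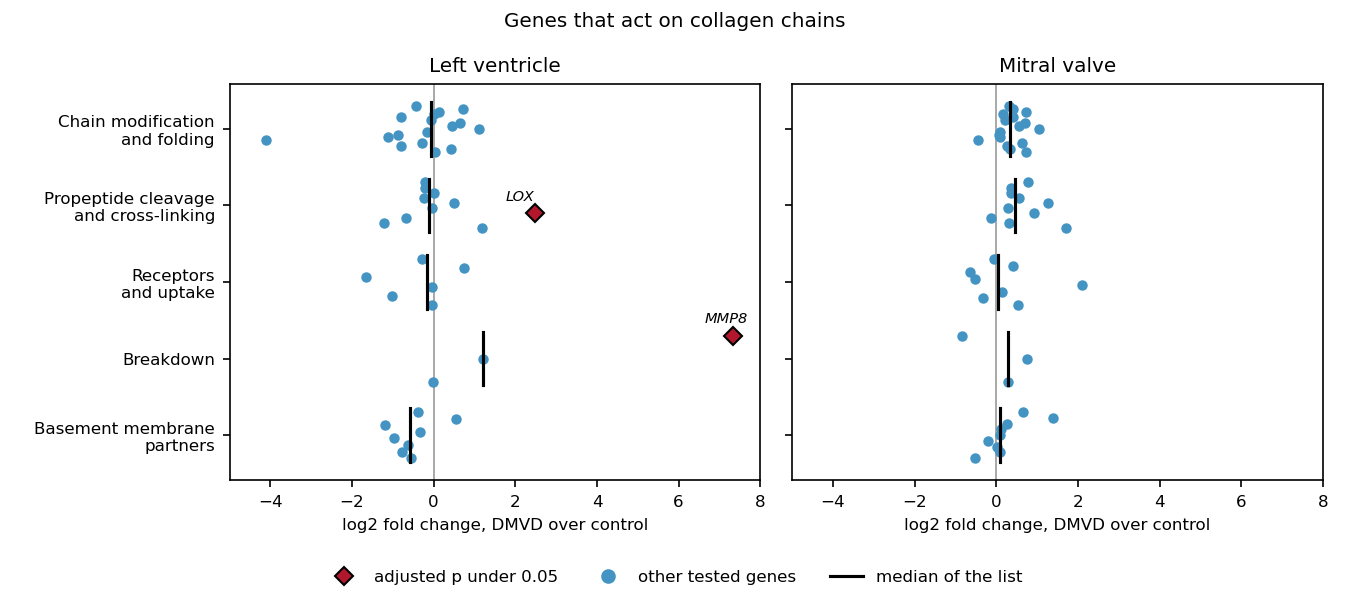
Log2 fold change (horizontal axis, DMVD over control) of genes that act on collagen chains, by list and tissue, with black lines at list medians and diamonds for an adjusted p under 0.05. LOX (2.49) and MMP8 (7.34) in the ventricle are the diamonds, and the valve panel has none.

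The errors set what could be seen. In the ventricle the SE of the 18 tested collagen genes ran from 0.42 to 1.34, and a called difference would have needed between 2.496-fold and 18.9-fold. In the valve the SE of the 27 tested genes ran from 0.46 to 1.60, and a call would have needed between 3.25-fold and 62.0-fold. The uncalled genes are therefore not shown to be equal between diagnoses.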

How the data were processed

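RNA from left ventricle and mitral valve was sequenced in 12 libraries from 8 dogs, counting libraries of the same number, breed and age as 1 dog. The submitters' processing notes name cutadapt, Bowtie, TopHat and CanFam3.1; quantification software was not given in the sources used here. Per tissue, the authors deposited 1 table with 1 FPKM per group, read as FPKM from the Cuffdiff-like layout per the file headers. The deposited log2 fold change (its sign is control relative to DMVD, and a fill value stands where either group is 0) and test statistic are treated as scores, and the deposited p-value is unadjusted. The authors tested 13788 genes in the ventricle and 14810 in the valve.

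The log2 of DMVD over control FPKM was computed from the deposited group values. For tested genes with both groups above 0, p equalled the normal p of the statistic to within 2.84e-06, so SE was taken as log2 fold change over statistic; 95% intervals use 1.96 SE. The authors' p was adjusted by Benjamini-Hochberg over all tested genes of a tissue, at 0.05. The tissue difference used the root of summed squared SE and a two-sided normal p, adjusted over 13099 genes. These steps were tested on simulated data. Starts were raised by 1, taken as counted from 0. Named genes were members called, the 3 smallest p per type and tissue, the 8 highest per group, partner chains, and listed genes called or among the 4 smallest p. Members, lists and tests were chosen with earlier results of these data known. Alternatives were pseudocounts, filters on low values, median centring and leaving out shared loci. The planned description of protein sequences was not run. One marker list is not reported here. Tools were matplotlib 3.10.9, scipy 1.17.1, pandas 2.3.3, numpy 2.4.6 and Python 3.11.15.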

Additional observations from a re-analysis of the deposited data

How the results depend on the processing

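Adding 1 or 0.1 FPKM changed the log2 values only and kept the authors' p, so it could not change a call. The single collagen call of each tissue was kept with the filter at 1 FPKM and with median centring. In the ventricle it was also kept when genes sharing a locus were left out. The count of called collagen genes became 0 in both the ventricle and the valve when the adjustment covered genes averaging 5 FPKM or more, because COL14A1 and COL6A5 lie below that mean, and 0 in the valve when genes sharing a locus were left out, which removes COL6A5. Where COL14A1 stayed in, its adjusted p was 0.0338 to 0.0471, and that of COL6A5 was 0.000115 to 0.00018. The tissue difference gave 0 calls under every alternative run. Signs of single genes turned in 4 cases, all uncalled: centring on the median gave 0.022 for LOXL4 in the ventricle, -0.025 for LAMA4 and -0.0003756 for SOX9 in the valve, and adding 1 FPKM gave 0.10 for the valve minus ventricle value of COL8A1. The calls of SOX9 and GLT25D2 in the ventricle and CD163 in the valve were gained under some alternatives. Adding 1 FPKM moved 7 collagen values by more than their SE, all towards 0, and 16 values of other genes, among them LOX in the ventricle, at 1.65. Medians turned sign in 6 cases. In the ventricle a mean of 5 FPKM or more gave 0.25 for all collagen genes and 0.22 for fibrillar chains, and leaving out shared loci gave -0.11 for basement membrane chains. In the valve the FACIT median became -0.003861 with 1 FPKM added and -0.02 with centring, and the network median -0.38 without shared loci. No paired analysis was possible because the tables hold group values, and leaving out each replicate was not run for the same reason.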

Other observations

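Of 43 collagen gene symbols in the RefSeq dog table, 31 had a row of that name here, and 12 did not. For COL11A1 and COL4A5 a single row lies between the same neighbouring genes. The unnamed row between RNPC3 and OLFM3, where RefSeq has COL11A1, had 1.33 FPKM in DMVD valves and 1.17 FPKM in control valves. The row named Q8HYC1_CANFA between COL4A6 and IRS4, where RefSeq has COL4A5, had 2.35 FPKM in DMVD valves and 1.78 FPKM in control valves. Neither passed in the valve. At the other unmatched positions more than 1 row lies between the neighbours or shares their listed locus, so none was assigned. Some had high levels. An unnamed row that shares the listed locus of COL6A1 and FTCD had 102 FPKM in DMVD valves and 94.6 FPKM in control valves (0.11 ± 1.30). RefSeq has COL6A2 between those genes, but the row is also a candidate for COL18A1. Another between WDR5 and OLFM1, where RefSeq has COL5A1, had 43.2 FPKM in DMVD valves and 29.8 FPKM in control valves. Others differed more in fold, and none was called. An unnamed row where RefSeq has COL26A1 had 1.075 FPKM in DMVD valves and 0.0397 FPKM in control valves (4.76 ± 1.64). One at the COL23A1 position, which shares its listed locus, had 2.93 FPKM in DMVD valves and 0.565 FPKM in control valves (2.37 ± 0.87). One at the COL16A1 position had 3.015 FPKM in DMVD ventricles and 1.12 FPKM in control ventricles (1.43 ± 0.54). All these rows are outside the sums, shares and places. The name COHA1_CANFA, outside both name patterns, had 0.154 FPKM in DMVD valves and 0.172 FPKM in control valves and was untested.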
